A study of Mus musculus with 4 samples.

Results

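The genes examined here encode the β subunits of the sodium-potassium pump (Atp1b1, Atp1b2 and Atp1b3) and the plasma membrane calcium pumps (Atp2b1, Atp2b2, Atp2b3 and Atp2b4). They were taken by symbol, and all 7 were found among the 27999 genes of the matrix. Per the labels, single cells came from 4 retinas of C57BL/6 mice aged 3 months that carried a Brn3b::GFP reporter, and GFP-positive cells were enriched by sorting before 10x 3′ V2 libraries were made. Brn3b is the protein of Pou4f2, a transcription factor of retinal ganglion cells (RGCs), the neurons whose axons form the optic nerve. All retinas belong to 1 group with no treatment, and the matrix does not tie barcodes to retinas, so it was read as 1 pooled sample without replicates. No test was made: every interval below is an exact 95% interval that covers counting error only, of UMIs or, for detection shares, of barcodes. None covers differences between retinas.

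Barcodes were assigned to classes by marker counts. RGC barcodes had Slc17a6 of 1 or more, Rbpms and Slc17a6 together of 3 or more, and Lhx1 of 1 or less. Horizontal barcodes had Lhx1 of 2 or more and no Slc17a6, and bipolar barcodes had Trpm1 of 2 or more and Pcp2 of 3 or more. Cone barcodes had Arr3 of 5 or more and Gnat2 of 2 or more, and Müller barcodes (the main glia of the retina) had Rlbp1 and Slc1a3 of 3 or more each. After filtering, 912 RGC, 393 horizontal, 292 bipolar, 93 cone and 196 Müller barcodes were analysed. RGC barcodes with 3 or more UMIs of Opn4, the gene of the photopigment melanopsin, numbered 62, against 850 other RGC barcodes. A further 92 amacrine, 54 rod and 137 microglia barcodes gave context. Cells of every class came through the same sort, so the numbers of barcodes do not give the makeup of the retina.

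The whole matrix held 31361961 UMIs (unique molecular identifiers, each marking 1 captured molecule) in 3237 barcodes, with 3198 to 53709 per barcode. Depth differed between classes: the median was 15825.5 UMIs in RGC barcodes, against 11187 in horizontal, 4263 in bipolar, 3768 in cone and 4651 in Müller barcodes. Each of the 8 classes had the highest summed level of its own marker list, and the RGC list stood at 8954 CPM in RGC barcodes, against 270 to 1083 CPM in the other 7 classes. Some transcripts were found outside their own class: a list of 3 rod marker genes summed to 151 CPM or more in each class. A low level of a neuronal gene in Müller or microglia barcodes is therefore given below as a background level. Levels are in CPM, the summed UMIs of a gene scaled to 1000000 UMIs of its class.

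The sodium-potassium pump moves sodium out of the cell and potassium in, and so maintains the gradients on which action potentials and many transporters depend. Its α subunit does the transport, and its β subunit is needed for folding and for delivery to the membrane. The plasma membrane calcium pumps are single proteins, stimulated by calmodulin, that push calcium out of the cell after light responses, synaptic release and spikes.

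The 7 genes lie apart in the mouse genome, in mm10 coordinates of the GENCODE annotation. Atp1b1 spans chr1:164437109-164458355 and Atp2b4 chr1:133699457-133801041, both on the minus strand. Atp1b2 spans chr11:69599736-69605942 (minus), Atp1b3 chr9:96332655-96364442 (minus), Atp2b1 chr10:98914406-99026143 (plus), Atp2b2 chr6:113743831-114042613 (minus) and Atp2b3 chrX:73503086-73571005 (plus). All are protein coding. The 3′ end of Atp1b1 overlaps the protein-coding gene Nme7 on the other strand, which had 501 UMIs over all barcodes. Whether the authors' counting used strand is not given in the sources used here.

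Promoter windows of 300 bases, 250 before to 50 after the annotated start, were available for 5 of the 7 genes in RefSeq (GRCm38.p6). The 3 shown belong to Atp1b1 and Atp2b2, whose levels had a Pearson's r of 0.80 across the 8 classes, and to Atp2b1. Atp2b1 had r of 0.30 with Atp1b1 and 0.15 with Atp2b2. Atp1b1 was highest in horizontal barcodes and Atp2b2 in RGC barcodes. Capitals mark matches, on either strand, to the motif TATATA, the motif TATAAA of the classical TATA box, the motif CCAAT of the CCAAT box, the motif GGGCGG of the GC box, and the motif TAATCC, which the photoreceptor factor CRX is known to bind.
Atp1b1 (chr1:164458306-164458605, minus strand): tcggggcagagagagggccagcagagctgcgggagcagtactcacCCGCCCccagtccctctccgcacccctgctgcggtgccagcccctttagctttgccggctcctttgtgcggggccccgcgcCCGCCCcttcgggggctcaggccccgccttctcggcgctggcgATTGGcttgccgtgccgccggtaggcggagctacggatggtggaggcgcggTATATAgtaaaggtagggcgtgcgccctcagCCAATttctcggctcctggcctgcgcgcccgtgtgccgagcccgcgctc
Atp2b2 (chr6:114042031-114042330, minus strand, the first start listed): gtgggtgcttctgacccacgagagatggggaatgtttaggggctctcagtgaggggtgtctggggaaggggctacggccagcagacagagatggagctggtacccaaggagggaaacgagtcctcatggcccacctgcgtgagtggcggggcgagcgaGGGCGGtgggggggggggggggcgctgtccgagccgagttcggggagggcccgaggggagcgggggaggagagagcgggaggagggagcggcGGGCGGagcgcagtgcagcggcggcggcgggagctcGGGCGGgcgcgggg
Atp2b1 (chr10:98914392-98914691, plus strand, the first start listed): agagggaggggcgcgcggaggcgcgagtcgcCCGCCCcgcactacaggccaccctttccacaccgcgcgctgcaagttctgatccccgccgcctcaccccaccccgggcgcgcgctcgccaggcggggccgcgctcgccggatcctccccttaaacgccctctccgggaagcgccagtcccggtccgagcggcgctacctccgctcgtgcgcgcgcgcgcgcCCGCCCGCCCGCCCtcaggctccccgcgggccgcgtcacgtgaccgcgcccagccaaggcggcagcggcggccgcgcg
The Atp1b1 window held TATATA beginning 30 bases before the start, 2 CCAAT matches and 2 GGGCGG matches. The Atp2b2 window held 3 GGGCGG matches and the Atp2b1 window 4, and neither held TATATA or CCAAT. Of the 4, 3 lie in a run in which each overlaps the next. No window of the 3 held TATAAA or TAATCC. Of 32851 mouse windows of the same length, 5.67% held TATATA, 13.6% TATAAA, 37.4% CCAAT, 35.7% GGGCGG and 7.06% TAATCC on either strand. TATATA reads the same on both strands, and these matches describe the letters in the windows only. The GC content was 71% for Atp1b1, 72.7% for Atp2b2 and 79.3% for Atp2b1, against a median of 52.7% over all windows.

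Among the β subunit genes, RGC barcodes were dominated by Atp1b1, which encodes the β1 subunit, the usual partner of α subunits in neurons. Atp1b1 supplied 90.4% of their Atp1b UMIs (interval 90.1% to 90.7%, 26640 of 29469), Atp1b2 5.70% and Atp1b3 3.90%. Atp1b1 was the leading β gene in 899 of the 901 RGC barcodes with 5 or more Atp1b UMIs. The mix in horizontal barcodes was close to this, with 94.1% Atp1b1, while cone barcodes were the opposite, with 91.8% Atp1b2 and 6.58% Atp1b1. These shares are shares of UMIs, not divided by transcript length: a 3′ library counts a molecule once whatever its length, and differences in capture between 3′ ends stay in them.

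The level of Atp1b1 was high in some classes and near background in others. It was 1725 CPM in RGC barcodes (interval 1705 to 1746), against 1977 CPM in horizontal, 146 CPM in bipolar, 95.5 CPM in cone and 87.0 CPM in Müller barcodes. Amacrine barcodes had 1309 CPM, rods 368 CPM and microglia 107 CPM. The intervals of RGC, horizontal, amacrine and rod barcodes did not overlap those of their neighbours in this order, whereas bipolar, microglia, cone and Müller barcodes, the 4 lowest, overlapped stepwise. A single barcode held 30.1% of the Atp1b1 UMIs of rods and 36.1% of those of microglia; with every barcode weighted equally the level was 1581 CPM in RGC barcodes, against 160 CPM in rods and 85.2 CPM in microglia.

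Within the RGC class Atp1b1 was detected in every barcode deep enough to judge. In 724 RGC barcodes thinned to 12000 UMIs, the median was 19 Atp1b1 UMIs, the 10th percentile 10, the 90th percentile 32 and the maximum 58, and none was at 0. The 132 horizontal barcodes of that depth had a median of 26 and a maximum of 50. Thinned to 3000 UMIs, Atp1b1 was detected in 96.8% of RGC barcodes, against 17.3% of Müller and 19.0% of microglia barcodes. The last 2 shares are given as the background of this gene in classes at the foot of its order.

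Atp1b2 encodes the β2 subunit, known also as an adhesion molecule on glia, which in retina is found in photoreceptors and bipolar cells. Its level was 109 CPM in RGC barcodes (104 to 114), against 1331 CPM in cones (1219 to 1451), 643 CPM in rods, 573 CPM in Müller, 550 CPM in bipolar and 319 CPM in amacrine barcodes. Only horizontal barcodes, with 21.5 CPM, and microglia, with 26.3 CPM, were below RGC barcodes among the 8 classes. The intervals of rod and Müller barcodes overlapped, as did those of Müller and bipolar barcodes and those of microglia and horizontal barcodes. Atp1b2 led the β genes in all 61 cone barcodes with 5 or more Atp1b UMIs, in 84.5% of such bipolar and in 67.3% of such Müller barcodes, and in 1 of 901 RGC barcodes.

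Atp1b3, the gene of the β3 subunit, was highest in Müller barcodes. Its level was 74.5 CPM in RGC barcodes (70.2 to 78.9), against 380 CPM in Müller barcodes (342 to 421), 102 CPM in horizontal, 23.2 CPM in cone and 11.9 CPM in bipolar barcodes. Microglia had 94.7 CPM, amacrine barcodes 90.4 CPM and rods 25.0 CPM. Atp1b3 made up 3.90% of Atp1b UMIs in RGC barcodes, against 36.5% in Müller barcodes (33.5% to 39.6%) and 41.5% in microglia, whose Atp1b total was 130 UMIs.

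**Figure D1:**
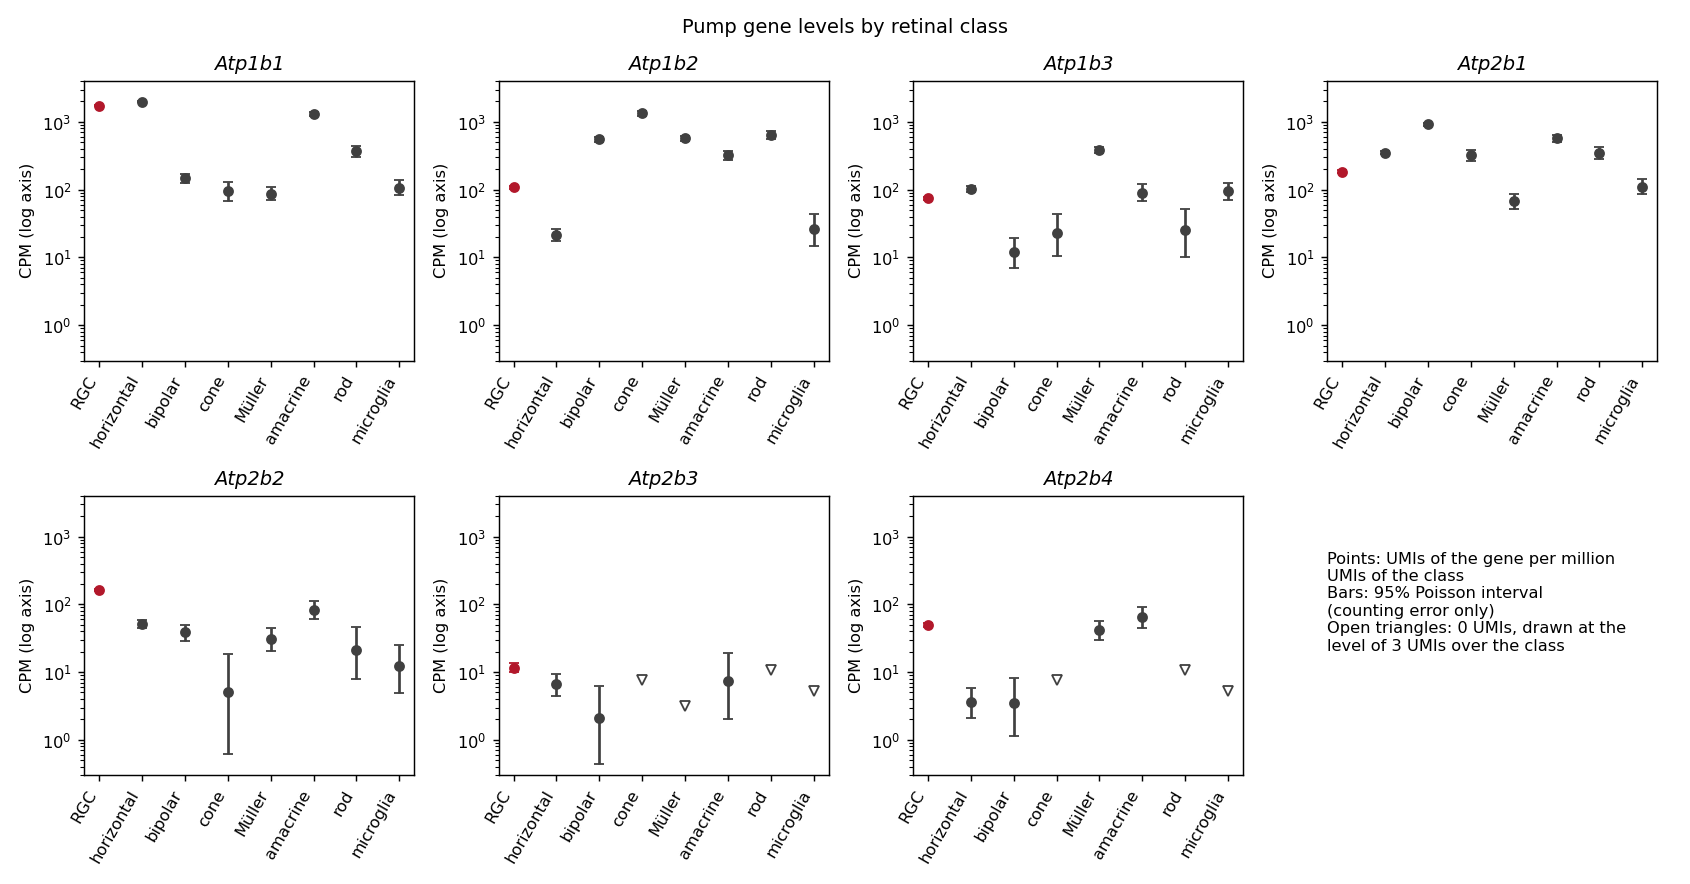
Level of each pump gene in 8 classes on a log axis of CPM, with exact 95% intervals for counting error; open triangles stand for 0 UMIs and are drawn at the level of 3 UMIs over the class. Atp1b1 was high in RGC (1725 CPM), horizontal and amacrine barcodes, while Atp1b2 was 109 CPM in RGC barcodes and 1331 CPM in cones.

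The calcium pump genes divided differently. RGC barcodes had 2 main genes, Atp2b1 with 45.4% of Atp2b UMIs (44.2% to 46.7%) and Atp2b2 with 39.6% (38.4% to 40.8%), followed by Atp2b4 with 12.1% and Atp2b3 with 2.86%. Horizontal, bipolar, cone and rod barcodes were mostly Atp2b1, at 85.1%, 95.4%, 98.4% and 94.2%. The summed Atp2b level was nearly the same in RGC barcodes (407 CPM) and horizontal barcodes (408 CPM), against 959 CPM in bipolar, 325 CPM in cone and 139 CPM in Müller barcodes.

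Atp2b1 encodes PMCA1, the most widely expressed of these pumps. It stood at 185 CPM in RGC barcodes (178 to 192), against 915 CPM in bipolar barcodes (866 to 966), 347 CPM in horizontal, 320 CPM in cone and 66.9 CPM in Müller barcodes. Amacrine barcodes had 572 CPM, rods 350 CPM and microglia 111 CPM, so RGC barcodes were the sixth of the 8 classes. Rod, horizontal and cone barcodes had overlapping intervals, as did microglia and Müller barcodes. At 12000 UMIs, 86.2% of RGC and 97.0% of horizontal barcodes had an Atp2b1 UMI.

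Atp2b2 encodes PMCA2, a fast pump best known from hair cells of the ear and cerebellar neurons. Its highest level was in RGC barcodes, at 161 CPM (155 to 168), against 83.0 CPM in amacrine, 50.7 CPM in horizontal, 38.5 CPM in bipolar, 30.8 CPM in Müller, 21.4 CPM in rod and 12.3 CPM in microglia barcodes. Cones had 2 UMIs, or 5.16 CPM (0.625 to 18.6). The RGC and amacrine intervals stood apart from each other and from the rest, and each later class overlapped the next. At 12000 UMIs, 81.1% of RGC barcodes had an Atp2b2 UMI, against 42.4% of horizontal barcodes.

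Atp2b3 and Atp2b4 were the sparse genes. Atp2b3, the gene of PMCA3, a pump found mainly in the nervous system, had 11.7 CPM in RGC barcodes (180 UMIs), against 6.56 CPM in horizontal (29 UMIs), 2.10 CPM in bipolar (3 UMIs) and 7.38 CPM in amacrine barcodes (4 UMIs). It had 0 UMIs in cone, Müller, rod and microglia barcodes, with exact upper limits of 9.52, 3.91, 13.2 and 6.47 CPM. Its neighbours in this order all overlapped.

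Atp2b4, the gene of PMCA4, was found in neurons and in glia. Its level was 49.2 CPM in RGC barcodes (45.8 to 52.8), against 64.5 CPM in amacrine barcodes (45.0 to 89.8), 41.4 CPM in Müller barcodes (29.4 to 56.6), 3.62 CPM in horizontal and 3.50 CPM in bipolar barcodes. The intervals of the 3 highest classes overlapped. Cone, rod and microglia barcodes had 0 UMIs, with exact upper limits of 9.52, 13.2 and 6.47 CPM. Atp2b4 formed 12.1% of Atp2b UMIs in RGC barcodes, against 29.8% in Müller barcodes (22.1% to 38.4%, 39 of 131 UMIs) and 0.887% in horizontal barcodes.

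**Figure D2:**
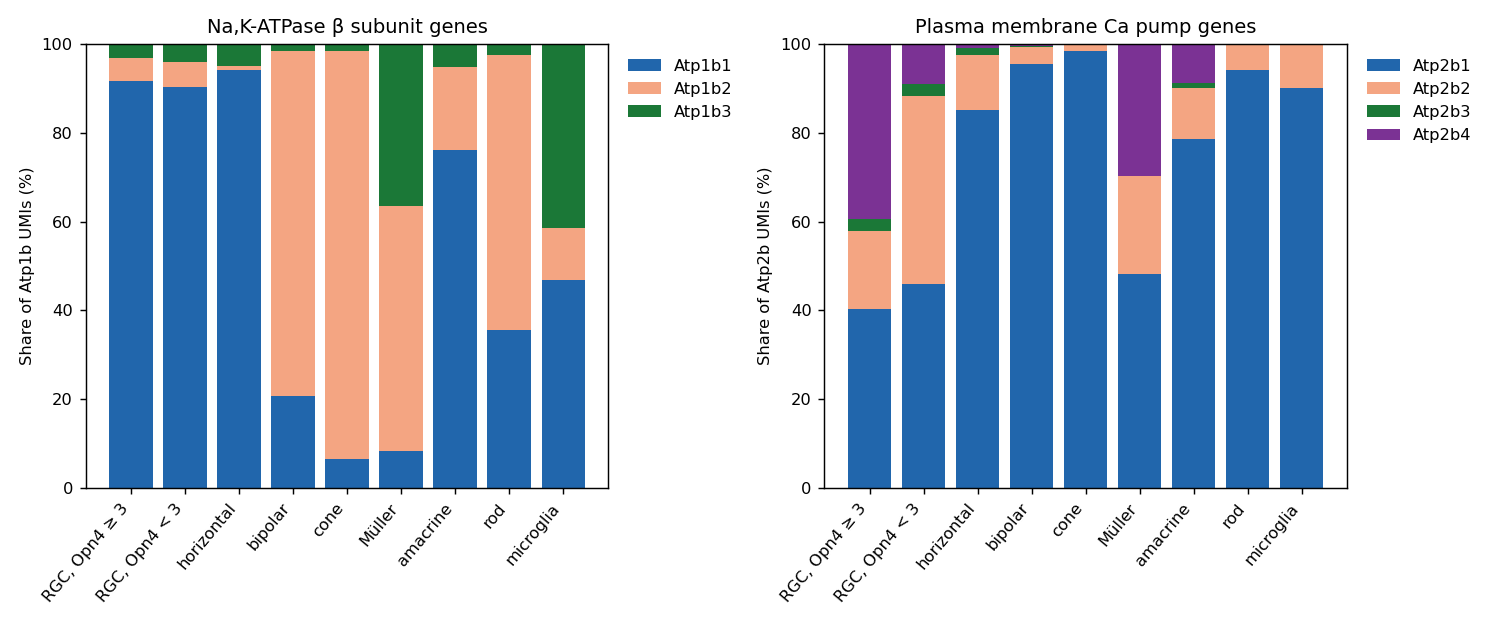
Share of each gene in the UMIs of its family, in percent, for RGC barcodes with Opn4 of 3 or more, RGC barcodes with less, and 7 other classes. Atp1b1 fills 91.7% and 90.2% of the bars of the 2 RGC groups and 6.58% of the cone bar; Atp2b4 fills 39.3% in Opn4 RGC barcodes and 8.95% in other RGC barcodes.

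Ratios of CPM between RGC barcodes and each other class put numbers on these differences; a member was counted where it differed by 2-fold or more, with 3 UMIs set for a class at 0. Against horizontal barcodes 3 of the 7 genes were higher in RGC barcodes and none lower, where 27.9% of the 10233 genes with 100 or more UMIs differed in either direction (19.1% higher, 8.85% lower). The 3 were Atp2b4 at 13.6-fold (8.32 to 23.9), Atp1b2 at 5.06-fold (4.11 to 6.29) and Atp2b2 at 3.18-fold (2.77 to 3.66). At 1.5-fold 5 of 7 passed, where 46.1% of genes did. Atp2b3 was at 1.78, Atp1b1 at 0.872, Atp1b3 at 0.730 and Atp2b1 at 0.532. The median log2 ratio was 0.83 over the members and 0.13 over all these genes.

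Against bipolar barcodes all 7 passed, 5 higher and 2 lower in RGC barcodes, where 36.5% of 9919 genes did (25.1% higher, 11.4% lower). Atp2b4 was 14.1-fold higher (6.00 to 43.4, from 5 bipolar UMIs), Atp1b1 11.8-fold (10.3 to 13.6), Atp1b3 6.26-fold, Atp2b3 5.55-fold (1.87 to 27.2, from 3 bipolar UMIs) and Atp2b2 4.18-fold. Atp1b2 was 5.06-fold lower in RGC barcodes (4.65 to 5.51) and Atp2b1 4.95-fold lower (4.63 to 5.29). Both genes that were lower in RGC barcodes were the leading genes of their families in bipolar barcodes. The median log2 ratio was 2.47 over the members and 0.13 over all genes.

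Against cone barcodes 4 were higher and 1 lower in RGC barcodes, where 41.7% of 9721 genes passed (29.6% higher, 12.1% lower). Atp1b1 was 18.1-fold higher (13.1 to 25.7), Atp1b3 3.21-fold, Atp2b2 31.2-fold (8.64 to 258, from 2 cone UMIs) and Atp2b4 at least 6.36-fold with 3 UMIs set for cones, where its exact lower limit was 5.16. Atp1b2 was 12.2-fold lower (11.1 to 13.5). Atp2b1 had a ratio of 0.578, and the bound for Atp2b3 was 1.51-fold. Cone barcodes held 387601 UMIs in all, and the limits are wide: with doublets kept Atp1b1 was 10.4-fold higher, with barcodes of several classes kept Atp2b2 was 10.9-fold higher, and a mitochondrial maximum of 5% left 5 cone barcodes, with 2 of the 7 genes past 2-fold. The median log2 ratio was 1.68 over the members, with bounds for those at 0, and 0.30 over all genes.

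Against Müller barcodes 4 were higher and 2 lower in RGC barcodes, where 44.8% of 9982 genes passed (31.0% higher, 13.8% lower). Atp1b1 was 19.8-fold higher (16.0 to 24.9), Atp2b2 5.24-fold, Atp2b1 2.77-fold and Atp2b3 at least 3.66-fold with 3 UMIs set for Müller barcodes, where its exact lower limit was 2.95. Atp1b2 was 5.27-fold lower and Atp1b3 5.10-fold lower in RGC barcodes. Atp2b4 had a ratio of 1.19 (0.862 to 1.69). In the 29 Müller barcodes left by a mitochondrial maximum of 5%, Atp2b2 was 21.7-fold higher in RGC barcodes, and its share of Müller Atp2b UMIs was 5.56%, against 22.1% in the 196; doubling the class minimums put the bound for Atp2b3 at 1.97-fold. The median log2 ratio was 1.47 over the members, with the bound for Atp2b3, and 0.37 over all genes.

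Opn4 RGC barcodes correspond by their marker to the melanopsin cells, which respond to light themselves and serve the body clock and the pupil reflex. Their calcium pump mix differed from that of other RGC barcodes. Atp2b4 supplied 39.3% of Atp2b UMIs in Opn4 RGC barcodes (35.6% to 43.2%), against 8.95% in other RGC barcodes (8.22% to 9.72%). Atp2b2 supplied 17.5% in Opn4 RGC barcodes, against 42.2% in other RGC barcodes, while Atp2b1 supplied 40.4% and 46.0%. The Atp1b mix was 91.7% Atp1b1 in Opn4 RGC barcodes and 90.2% in other RGC barcodes.

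In level, Atp2b4 had 208 CPM in Opn4 RGC barcodes (184 to 236), against 35.5 CPM in other RGC barcodes (32.4 to 38.7). It was the 1 of 7 members past 2-fold, at 5.88-fold (5.04 to 6.84), where 8.27% of 9617 genes passed in either direction; 2.49% were higher in Opn4 RGC barcodes and 5.78% lower. At 1.5-fold 3 passed, where 20.5% of genes did. Atp2b2 had 92.8 CPM in Opn4 RGC barcodes and 167 CPM in other RGC barcodes, a ratio of 0.556 (0.456 to 0.671). Atp1b1 had 2503 CPM and 1658 CPM, a ratio of 1.51 (1.45 to 1.57). The other 4 ratios were between 1.17 and 1.33, and those of Atp1b3 and Atp2b3 had intervals that held 1. The ratio of Atp2b1 was 1.17, and 0.940 after thinning to 3000 UMIs; that of Atp2b3 was 1.29, and 0.938 with the class minimums doubled.

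The difference in Atp2b4 was seen cell by cell. At 12000 UMIs, Atp2b4 was detected in 85.2% of 54 Opn4 RGC barcodes (72.9% to 93.4%), against 26.3% of 670 other RGC barcodes (23.0% to 29.8%); unthinned the shares were 91.9% and 30.5%. These intervals count barcodes of the pooled sample, which are not replicates. The background share at 12000 UMIs in horizontal barcodes, which are low for this gene, was 3.79%. Among Opn4 RGC barcodes, 7 of 54 had 6 or more Atp2b4 UMIs, against 1 of 670 other RGC barcodes. Over the 724 RGC barcodes thinned to 12000 UMIs, the ratio of variance to mean was 2.22 for Atp2b4. Atp2b1 had 1.24, Atp2b2 1.42 and Atp1b1 3.78.

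**Figure D3:**
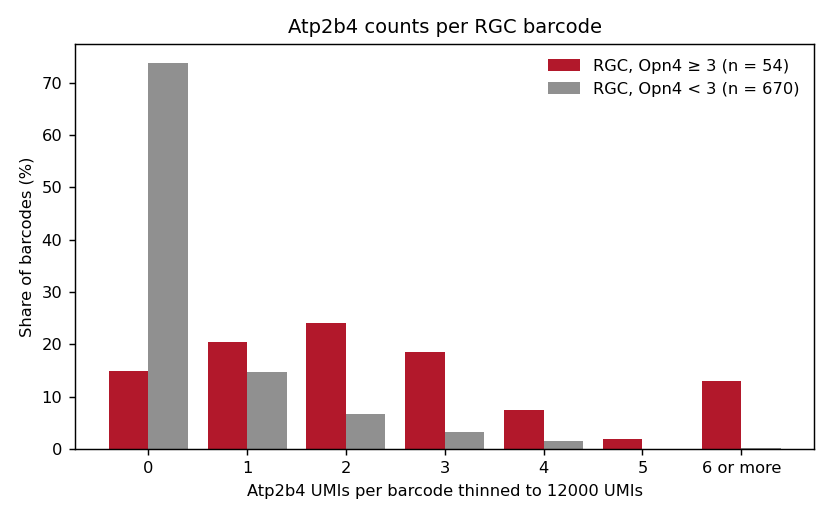
Share of RGC barcodes, in percent, with each number of Atp2b4 UMIs after thinning to 12000 UMIs, for 54 barcodes with Opn4 of 3 or more and 670 with less. The share at 0 is 14.8% in Opn4 RGC barcodes and 73.7% in other RGC barcodes.

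Other features moved with these groups. Median depth was 17934.5 UMIs in Opn4 RGC barcodes and 15650 in other RGC barcodes, and the median mitochondrial share was 3.40% and 3.97%. Amacrine and Müller barcodes also held Atp2b4. The 5 amacrine markers summed to 157 CPM in Opn4 RGC barcodes (2 of 5 at 0, Slc32a1 and Tfap2a) and 143 CPM in other RGC barcodes (none at 0), against 2702 CPM in amacrine barcodes. The 5 Müller markers summed to 387 CPM and 393 CPM, none at 0, against 36561 CPM in Müller barcodes. The 3 astrocyte markers summed to 57.8 CPM in Opn4 RGC barcodes (Gfap at 0) and 12.03 CPM in other RGC barcodes (none at 0), and most of this was S100b, at 54.5 CPM and 9.57 CPM. The part of any of these in the Atp2b4 difference was not tested.

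Divided by the number of Opn4 UMIs, a split chosen after values were seen, Atp2b4 and Atp2b2 ran opposite ways between the ends. Barcodes with 0, 1 to 2, 3 to 9 and 10 or more Opn4 UMIs numbered 797, 53, 28 and 34. Atp2b4 had 32.4, 78.4, 212 and 206 CPM in that order, and the last 2 intervals overlapped. Atp2b2 had 169, 138, 103 and 84.9 CPM, with the interval of each group overlapping the next. Atp1b1 had 1638, 1934, 2686 and 2362 CPM, highest at 3 to 9 UMIs.

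**Figure D4:**
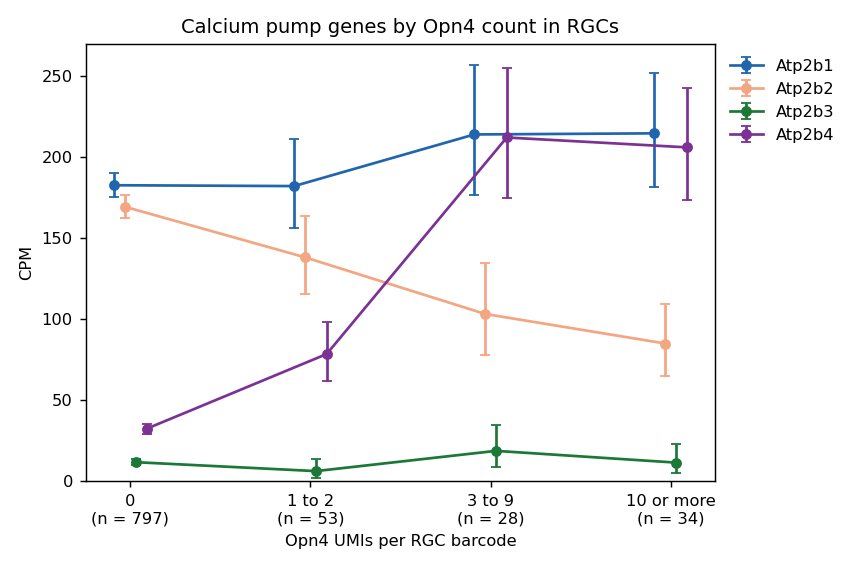
CPM of the 4 calcium pump genes in RGC barcodes with 0, 1 to 2, 3 to 9 and 10 or more Opn4 UMIs, with exact 95% intervals for counting error. Atp2b4 is at 32.4 CPM in the lowest group and 206 CPM in the highest, and Atp2b2 at 169 CPM and 84.9 CPM.

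Spp1 is the osteopontin gene, which marks large alpha-type RGCs. Opn4 of 3 or more UMIs and Spp1 of 5 or more were met together in 23 barcodes. These 23 had 277 CPM of Atp2b4 (237 to 322), and the 39 that met only the Opn4 cutoff 141 CPM (113 to 173). The 4 that met only the Spp1 cutoff had 0 UMIs (upper limit 26.9 CPM), and the 846 below both cutoffs 35.8 CPM. Barcodes below a cutoff can still hold UMIs of that gene. The 23 were deeper, with a median of 26428 UMIs, against 15275 in the 39. Atp1b1 was 3171 CPM in the 23, 1845 CPM in the 39, 2590 CPM in the 4 and 1649 CPM in the 846. In the same order Atp2b1 was 302, 128, 299 and 181 CPM. Both genes were thus higher in the 2 groups with Spp1, of which 1 held only 4 barcodes, than in the 2 without. The share of Atp2b4 in the Atp2b UMIs was alike in the 23 and the 39, at 39.5% and 39.0%. The cutoffs were those of the single subsets, but crossing them was decided after values were seen.

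Eomes, the gene of the transcription factor TBR2 that melanopsin cells and some other RGCs express, divided the barcodes below the Opn4 cutoff in a split also chosen afterwards. Atp2b4 had 128 CPM in the 86 such barcodes with an Eomes UMI (109 to 148), against 25.7 CPM in the 764 without (23.0 to 28.6). Atp2b4 made up 27.3% of Atp2b UMIs with Eomes and 6.61% without. Atp2b2 had 154 CPM with Eomes and 168 CPM without, and Atp1b1 1713 CPM and 1652 CPM, both far closer than Atp2b4.

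RGC barcodes were also divided into 10 overlapping subsets, each set by 1 marker gene and compared with all other RGC barcodes. The cutoffs were 3 UMIs for Opn4, Lmo2, Zic1 and Neurod2, and 5 for Spp1, Foxp2 and Penk. They were 2 for Tbr1, 50 for Cartpt and 20 for Pvalb. Across the subsets Atp2b4 varied most among the 7 genes. Its ratio ran between 0.128 and 5.88, and it passed 2-fold in 7 of the 10. The share of all genes past 2-fold was 8.27% for Opn4, 9.32% for Spp1, 7.39% for Foxp2, 16.3% for Lmo2, 5.84% for Tbr1, 12.2% for Zic1, 4.34% for Neurod2, 5.15% for Penk, 3.91% for Cartpt and 3.16% for Pvalb. The low end was the 104 barcodes with 20 or more UMIs of Pvalb, the parvalbumin gene, with 7.45 CPM of Atp2b4 against 58.0 CPM in all other RGC barcodes. These were also deep, with a median of 24334.5 UMIs, against 15174.5. Atp2b4 was 5.63-fold higher in the 27 Spp1 barcodes, of which 23 were also Opn4 barcodes, and 1.61-fold higher in the 37 with Tbr1. The Opn4 barcodes, which held 256 of the 760 Atp2b4 UMIs, were all, or all but 1 barcode, among the other RGC barcodes in the 8 comparisons besides Opn4 and Spp1. With them left out of both sides, a choice made after values were seen, Atp2b4 passed 2-fold in 4 of the 8 subsets that had a value. It was then lower in the Pvalb (ratio 0.134), Zic1 (0.286) and Penk (0.410) subsets and higher in the Tbr1 subset, at 2.31 (1.69 to 3.10). Foxp2 and Lmo2 were then at 0.690 and 0.563, with intervals that held 1, and the interval of Lmo2, with 4 UMIs in 9 barcodes, also held 1 against all other RGC barcodes (0.110 to 1.04).

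Atp1b2 was the second most varied of the well detected genes. It had 326 CPM in the 22 barcodes with 3 or more UMIs of Zic1, a transcription factor gene, against 103 CPM in all other RGC barcodes, a 3.16-fold difference (2.61 to 3.79). In those 22 Atp1b1 was lower, at 1125 CPM against 1741 CPM (ratio 0.646), and Atp2b4 was at 10.3 CPM against 50.2 CPM. The 67 barcodes with Penk, which encodes the enkephalin precursor, showed a like arrangement, with 197 CPM of Atp1b2 against 102 CPM and 1272 CPM of Atp1b1 against 1759 CPM. The other subset past 2-fold was Lmo2, where Atp1b2 was lower, at 45.2 CPM in 9 barcodes against 110 CPM, a ratio of 0.412 (0.188 to 0.785). Atp1b1, Atp1b3, Atp2b1 and Atp2b2 did not reach 2-fold in any of the 10 subsets. Atp2b3 had ratios under 0.5 in the Lmo2 and Zic1 subsets, of 9 and 22 barcodes, with intervals that held 1.

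**Figure D5:**
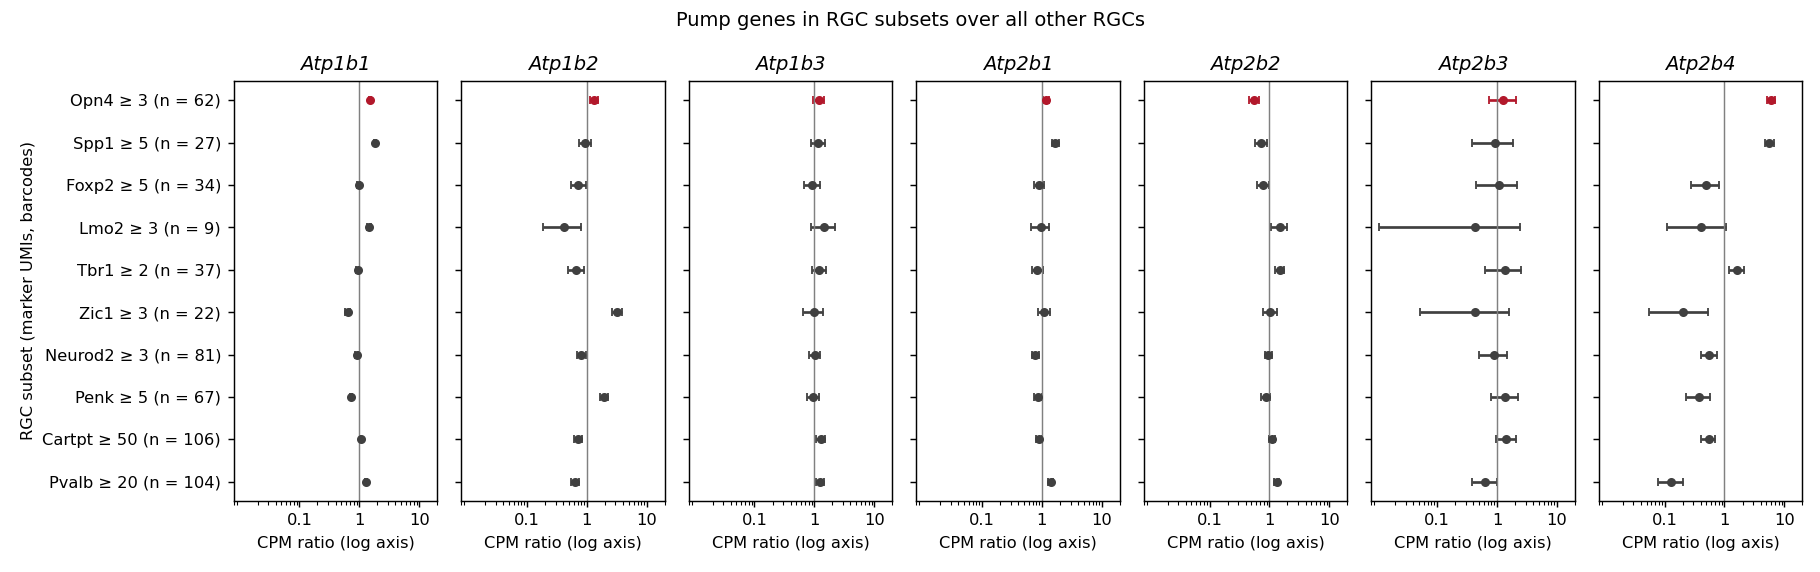
Ratio of CPM in each of 10 RGC subsets over all other RGC barcodes, on a log axis, with exact 95% intervals for counting error; the grey line marks equal levels. Atp2b4 ranges between 0.128 (Pvalb) and 5.88 (Opn4), and Atp1b1 between 0.646 (Zic1) and 1.85 (Spp1).

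The wider pathway was read from 32 related genes. Against horizontal barcodes 8 of the 16 with 100 or more UMIs were 2-fold or more higher in RGC barcodes and none lower, where 19.1% and 8.85% of all genes were. Against bipolar barcodes 9 of 17 were higher and 2 lower (all genes 25.1% and 11.4%), and against Müller barcodes 10 of 16 and 3 (31.0% and 13.8%). Against cone barcodes 5 of 16 were higher and 2 lower, near the 29.6% and 12.1% of all genes. In Opn4 RGC barcodes 2 of 15 were higher and 3 lower than in other RGC barcodes (2.49% and 5.78%). The list's median log2 ratio was 1.27, 1.26, 0.64 and 1.35 against horizontal, bipolar, cone and Müller barcodes and 0.04 in the Opn4 comparison, where all genes had 0.13, 0.13, 0.30, 0.37 and -0.04.

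Among the FXYD proteins, small regulators of the sodium-potassium pump, Fxyd7 stood out in RGC barcodes at 671 CPM, against 17.6 CPM in horizontal, 23.1 CPM in bipolar, 28.4 CPM in cone and 58.4 CPM in Müller barcodes. Fxyd1 had 11.98 CPM in RGC barcodes and 1506 CPM in Müller barcodes, and Fxyd6 13.4 CPM and 1612 CPM. Fxyd6 also divided the RGCs, with 70.0 CPM in Opn4 RGC barcodes and 8.51 CPM in other RGC barcodes, 8.22-fold (6.16 to 10.9). Fxyd5 was highest in microglia, with 6.61 CPM in RGC barcodes, against 125 CPM in microglia and 1.36 CPM in horizontal barcodes. Nkain3 and Nkain4, which encode small proteins that bind the pump, were low, at 15.0 and 15.3 CPM in RGC barcodes, and both were lower in Opn4 RGC barcodes (1.63 and 4.07 CPM) than in other RGC barcodes (16.1 and 16.3 CPM).

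The remaining calcium genes also differed between classes. Slc24a3, a potassium-dependent sodium-calcium exchanger gene, had 118 CPM in RGC barcodes, against 3.85 CPM in horizontal and 16.1 CPM in bipolar barcodes; within RGCs it was 26.0 CPM in Opn4 RGC barcodes and 126 CPM in other RGC barcodes. Slc24a2 went the other way, at 199 CPM in Opn4 RGC barcodes and 93.9 CPM in other RGC barcodes (2.12-fold). Slc24a1, the rod exchanger, had 6.35 CPM in RGC barcodes, against 126 CPM in cones and 740 CPM in rods, and Slc24a4 0.907 CPM in RGC barcodes, against 79.1 CPM in bipolar barcodes. Slc8a2, a sodium-calcium exchanger gene, had 14.4 CPM in RGC barcodes, against 0.905 CPM in horizontal barcodes, and Slc8a3 31.0 CPM, against 90.3 CPM in cones and 2.12 CPM in Müller barcodes. Slc24a5, also on the exchanger list, had 71.5 CPM in RGC barcodes, against 31.8 CPM in Müller barcodes, a ratio of 2.25 (1.56 to 3.34).

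Atp2a2, the pump of the endoplasmic reticulum, had 215 CPM in RGC barcodes, against 69.7 CPM in cones and 70.0 CPM in Müller barcodes, and Atp2c1, the pump of the Golgi, 58.4 CPM, against 169 CPM in bipolar barcodes. Neuroplastin and basigin are membrane partners of the plasma membrane calcium pumps. Nptn had 461 CPM in RGC barcodes, against 145 to 204 CPM in horizontal, bipolar, cone and Müller barcodes. Bsg had 893 CPM in RGC barcodes and 5227 CPM in Müller barcodes. Nptn had 462 CPM in Opn4 RGC barcodes and 461 CPM in other RGC barcodes, a ratio of 1.00 (0.918 to 1.09).

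For each member, the genes whose level followed it most closely over the 8 classes were found from Pearson's r of log2(CPM + 10) among 10990 genes; these are descriptions over 8 points of unequal depth. Atp1b1 was closest to Dner, Snhg11 and Elavl3 (r between 0.992 and 0.996), and 67 genes had r above 0.95. Elavl3 encodes a neuronal RNA-binding protein, with 359 CPM in RGC barcodes, against 406 CPM in horizontal and 8.49 CPM in Müller barcodes. Atp1b2 was closest to Spint2, Gal3st3 and Ikzf2 (0.944 to 0.986), and Atp1b3 to Peak1, Ctnnbl1 and Ifit3b (0.934 to 0.955). Atp2b1 was closest to Prmt1, Nrep and Srrm4 (0.970 to 0.972), the last a neuronal splicing factor.

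Atp2b2 was closest to Numbl, Prkar1a and Cbarp (0.976 to 0.984). Cbarp, which encodes a regulator of voltage-gated calcium channels, had 259 CPM in RGC barcodes, against 136 CPM in amacrine and 12.9 CPM in cone barcodes. Atp2b3 was closest to Samd5, Ppm1a and Taf11 (0.981 to 0.997), but its 4 classes at 0 share 1 value. Atp2b4 was closest to Id4, Sqle and Btbd11 (0.974 to 0.992). It too shared 1 value in its classes at 0, the cone, rod and microglia barcodes, where Id4 was also at 0. In horizontal and bipolar barcodes Atp2b4 was at 3.62 and 3.50 CPM, below the 10 CPM added before the log. Id4, the gene of a helix-loop-helix inhibitor, had 70.7 CPM in RGC barcodes, against 94.1 CPM in amacrine, 76.4 CPM in Müller and 0.905 CPM in horizontal barcodes. Between members, r was 0.80 for Atp1b1 and Atp2b2, 0.30 for Atp1b1 and Atp2b1, 0.15 for Atp2b1 and Atp2b2, and -0.46 for Atp1b1 and Atp1b2. The highest values involved the sparse Atp2b3, at 0.91 with Atp2b2 and 0.90 with Atp1b1. The lowest was -0.76, for Atp1b3 and Atp2b1.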

How the data were processed

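The authors deposited raw UMI counts, whole numbers for each gene in each barcode and not normalized, with a table of gene symbols. The submitters' processing notes name Cell Ranger, Seurat 2.2 and mm10; the sources used here do not say what each tool did or how cells were called. The labels give 4 retinas in 1 group, all barcodes share 1 matrix, and 0 columns belonged to other samples.

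Barcodes with 500 or more genes and under 10% mitochondrial UMIs were kept (2699 of 3237). The loss was uneven: 948 of 950 RGC, 415 of 456 horizontal, 375 of 720 bipolar, 109 of 136 cone and 211 of 236 Müller barcodes passed. Among barcodes analysed, the median mitochondrial share was 3.93% in RGC and 8.54% in bipolar barcodes. Scrublet, run in scanpy 1.11.5, called 63 doublets. Of the 2636 left, 2169 met exactly 1 class rule and were analysed, 368 met none and 99 met several. UMIs were summed per class and scaled to CPM. Intervals are exact (Clopper-Pearson for shares, Poisson for CPM, conditional binomial for ratios) at 95%. They are taken over UMIs, and over barcodes for detection shares. They cover counting error only, with no variation between retinas and, for those over UMIs, none between cells. A class at 0 was set to 3 counts. Ratios were ranked where both classes together had 100 or more UMIs, which all 7 members had in each comparison. Detection was compared after thinning to 3000 or 12000 UMIs. The ratio step was tested on simulated counts.

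Named genes were the 7 members, related pathway genes with 100 or more UMIs and a 2-fold ratio, and the 3 genes closest to each member over 8 classes. The members and lists were chosen with earlier results of these data known. A few genes of the pathway and marker lists are not reported here and were left out of the lists' counts and sums. Scripts ran in Python 3.11.15 with scipy 1.17.1, numpy 2.4.6 and pandas 2.3.3, and plots were drawn with matplotlib 3.10.9.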

Additional observations from a re-analysis of the deposited data

How the results depend on the processing

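The alternatives were no cell filter, a mitochondrial maximum of 5%, doublets kept, barcodes of several classes kept, class minimums doubled, cells weighted equally, cells thinned to 3000 UMIs, a 1.5-fold limit, and 10 or more Opn4 UMIs against 0. Of the ratios past 2-fold, the 20 with UMIs in both classes gave 137 values under 8 of these settings, and all 137 kept their sign and stayed past 2-fold. The other two were bounds: Atp2b4 over cone barcodes stayed past 2-fold except under the 5% maximum (0.350), and Atp2b3 over Müller barcodes except under that maximum (0.568) and with minimums doubled (1.97). The share of Atp1b1 in RGC barcodes was 89.4% with cells weighted equally and 89.4% after thinning, against 90.4%, and that of Atp2b2 was 37.9% under the 5% maximum, against 39.6%. The number of members past 2-fold for RGC over horizontal barcodes was 5 after thinning and 5 at 1.5-fold, against 3. The thinned count was made without the UMI minimum used for ranking, so it is not directly comparable with the 3. It included Atp2b3, which was then detected in only 28 RGC and 5 horizontal barcodes. It also included Atp2b1, whose lowest log2 ratio over the settings was -1.003, barely past the limit. For RGC over cone barcodes the number was 2 under the 5% maximum, against 5. For Opn4 RGC over other RGC barcodes it was 3 at 1.5-fold, against 1. Ratios of RGC over bipolar barcodes that moved by over 1.5 times were Atp1b2 (0.0986 under the 5% maximum), Atp1b3 (2.76 there), Atp2b3 (8.96 thinned) and Atp2b4 (21.1 thinned); over horizontal barcodes it was Atp2b4 (20.8 under the 5% maximum), and over cone barcodes Atp1b1 (37.4 under that maximum, 10.4 with doublets kept) and Atp2b2 (19.3 with no cell filter, 10.9 with several classes kept), and over Müller barcodes Atp2b2 (21.7 under that maximum). Thinned bipolar barcodes with a UMI numbered 1 for Atp2b3 and 2 for Atp2b4, so these thinned ratios rest on few counts. Both are also among the 137 values. Levels, shares and ratios were also held against their main intervals, and the numbers of members past 2-fold against a 1.5 times limit. Under the 5% maximum 52 of these results moved and 72 did not. After thinning 33 moved and 95 did not, and with cells weighted equally 16 and 112. The share of Atp2b1 in Müller Atp2b UMIs ran from 46.8% to 72.2% over the settings, against 48.1%. The cause of the moves was not tested. The 5% maximum left 34 horizontal, 6 bipolar, 5 cone and 29 Müller barcodes; Atp2b3 and Atp2b4 over bipolar and Atp1b3 and Atp2b2 over cone barcodes then had 0 UMIs in the lower class and no value. Depth limits the genes at 0 in cone, Müller, rod and microglia barcodes to the bounds given. No paired analysis was possible because the samples form 1 group and no barcode is tied to a retina, so no retina could be left out either.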

Other observations

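Bipolar barcodes were almost all rich in Prkca, the protein kinase C gene that marks rod bipolar cells. In a split chosen after values were seen, 274 of the 292 had 5 or more Prkca UMIs and 11 had 2 or fewer. The bipolar levels, shares and ratios given above therefore rest mainly on the 274. They do not cover bipolar cells that fail the Trpm1 and Pcp2 rule. Atp2b1 had 924 CPM in the 274 (873 to 977) and 635 CPM in the 11 (459 to 855), whereas Atp1b2 had 524 CPM (486 to 564) and 1078 CPM (845 to 1355). The mix within Atp1b was alike, with Atp1b2 at 77.8% and 77.7%, and Atp2b1 made up 95.7% and 87.8% of Atp2b UMIs.

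Among RGC barcodes with 5 or more Atp2b UMIs, no single calcium pump led in most. Of 42 such Opn4 RGC barcodes, Atp2b1 led in 18, Atp2b4 in 16, Atp2b2 in 2, and 6 were ties. Of 541 such other RGC barcodes, Atp2b1 led in 234, Atp2b2 in 188, Atp2b4 in 23, and 96 were ties.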
